A study of Homo sapiens with 9 samples.

Results

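ZC3H12A and ZC3H12C encode Regnase-1 and Regnase-3, and chromatin immunoprecipitation sequencing (ChIP-seq) peaks around both genes were described in 786-O cells. A peak was taken as a member when its summit lay within 50 kb of an hg19 position given for the gene start, 37940119 on chromosome 1 for ZC3H12A and 109963926 on chromosome 11 for ZC3H12C. These positions were not checked against an hg19 annotation, and every distance from a start rests on them. This gave 27 peaks out of 60345 in 5 lists, 16 near ZC3H12A and 11 near ZC3H12C. Peaks that overlapped by at least 1 bp were joined into 9 sites, 4 at ZC3H12A and 5 at ZC3H12C. Both genes were chosen by the peak calls themselves, because a strong p65 site upstream of ZC3H12C had no peak in either treated list. Which lists hold a peak at these sites, and how strong it is, is therefore given as a description with no test.

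Regnase-1, also called MCPIP1, is a ribonuclease with a PIN-like nuclease domain and a CCCH zinc finger, which cleaves stem-loops in inflammatory mRNAs such as that of IL6. Its gene is a known NF-κB target, and the protein in turn limits the output of NF-κB, so that it forms a negative feedback loop. IκB kinase and the protease MALT1 remove the protein when cells are stimulated. Regnase-3, encoded by ZC3H12C, belongs to the same family and has been studied mainly in macrophages, in mouse. In clear cell renal carcinoma, MCPIP1 has been studied as a protein that restrains tumour growth. p65, or RELA, is the NF-κB subunit that carries its main activation domain, and TEAD proteins are the DNA-binding partners of YAP, the effector of the Hippo pathway.

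786-O is an established human clear cell renal carcinoma line. The 5 immunoprecipitates were p65 in siTEAD4 cells, whose treatment label reads siTEAD, p65 in control cells, p65 in cells treated with XMU-MP-1, which inhibits MST1 and MST2, the kinases at the head of the Hippo pathway, p65 in vehicle cells, and TEAD in XMU-MP-1 cells. The other 4 of the 9 libraries were inputs, for which no separate list was used here. Each condition has 1 library, so differences between lists cannot be set against a spread between replicates, and no test of them was made. The labels do not say whether the control cells received an siRNA, at which dose or for how long XMU-MP-1 was given, or which TEAD protein the antibody recognises. Peak lists hold no expression values, so the identity of the cells and the depletion of TEAD4 could not be checked in them.

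The siTEAD4-labelled list held 1813 peaks and the control list 15465. The XMU-MP-1 p65 list held 1649 peaks, the vehicle list 17958, and the TEAD list 23460. Peak identifiers in the siTEAD4-labelled list carry the name p65_Vert, found in no label, so its treatment rests on the sample label alone. The fold of a peak is the authors' value, which matches the fragment pileup at the summit plus 1 over the local background of the same library plus 1. Folds can be ranked within a list. They are set side by side across lists only to show where a peak was called, since each has its own background. The lists give no read totals, and the number of fragments at a summit was recovered from the fold and the p-value.

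At ZC3H12A p65 had a compact group of sites downstream of the start, and the strongest of them was called in all 4 p65 lists. At ZC3H12C a site upstream of the start had no p65 peak in either treated list, against a fold of 32.96 in control cells and 38.62 in vehicle cells. A weaker site next to the ZC3H12C start had a peak in the siTEAD4-labelled list and none in the XMU-MP-1 list. TEAD was called at 3 of the 4 ZC3H12A sites and at 1 of the 5 ZC3H12C sites, and the strong ZC3H12C site had none. Over both genes 4 of 9 peaks in each reference list had a TEAD peak. Of all control peaks 47.4% had one, and of all vehicle peaks 45.6%.

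**Figure D1:**
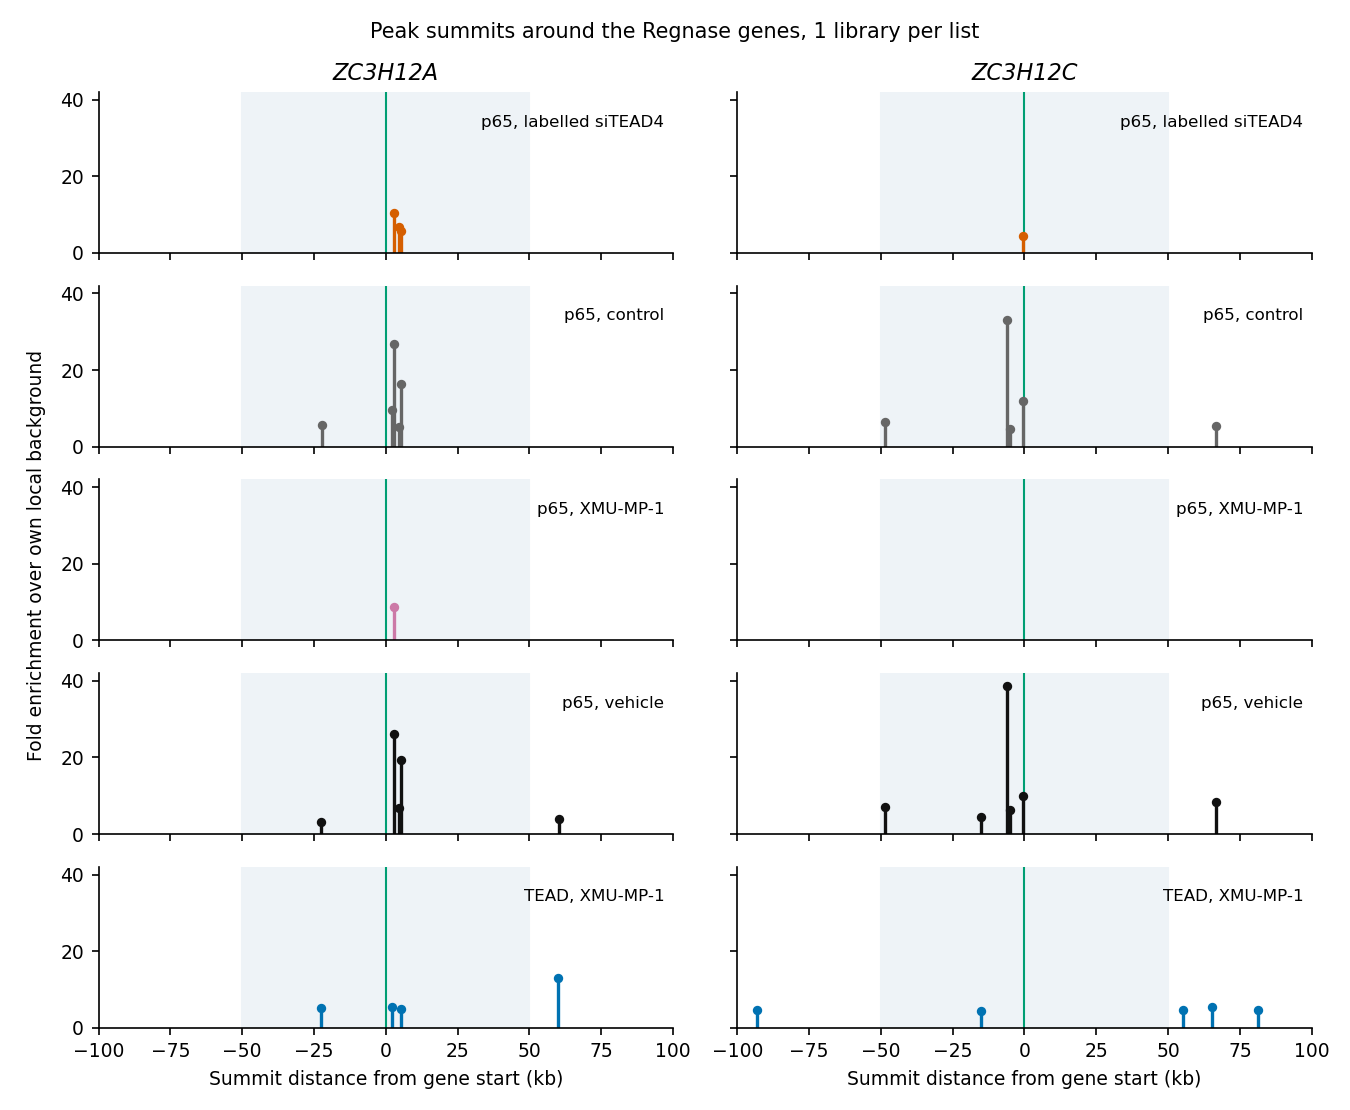
Fold enrichment of every peak against the distance of its summit from the start of ZC3H12A (left) and ZC3H12C (right), in kb, with 1 row for each list; the green line is the start and the shaded band the 50 kb window. The tallest stem of the control and vehicle rows lies just upstream of ZC3H12C, and the siTEAD4-labelled and XMU-MP-1 rows have no stem there.

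Near ZC3H12A there were 3 peaks in the siTEAD4-labelled list and 5 in the control list, and 1 peak in the XMU-MP-1 list, against 4 in the vehicle list. TEAD had 3. At ZC3H12C there was 1 siTEAD4-labelled peak against 4 in the control list, and no XMU-MP-1 peak against 5 in the vehicle list. TEAD had 1. All 9 control peaks at the 2 genes had a vehicle peak, where 79.5% of all control peaks had one. Of the 9 vehicle peaks, 8 had a control peak, where 68.5% of all vehicle peaks did. The p65 sites of the control and vehicle cells, which received neither siTEAD4 nor XMU-MP-1, were thus called in both lists with 1 exception, a weak vehicle peak upstream of ZC3H12C.

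Over both genes, 4 of the 9 control peaks had a siTEAD4-labelled peak, where 11.2% (10.7 to 11.7) of all control peaks had one. Of these 4, 3 were at ZC3H12A and 1 at ZC3H12C. Of the 9 vehicle peaks 1 had an XMU-MP-1 peak, at ZC3H12A, where 8.77% (8.37 to 9.19) of all vehicle peaks had one. These contrasts were used to choose the genes, so the counts are not read against the shares. The sites with a siTEAD4-labelled peak and no XMU-MP-1 peak were those 4.56 and 5.44 kb downstream of ZC3H12A and that next to the ZC3H12C start. No site had an XMU-MP-1 peak without a siTEAD4-labelled one. Over the genome, 2002 sites had a fold of at least 10 in both reference lists. Of these, 249 had a siTEAD4-labelled peak alone and 96 an XMU-MP-1 peak alone. The 249 include the 5.44 kb site and the site next to the ZC3H12C start, while the 4.56 kb site lies below that fold. The weakest −log10 p-value called was 4.9 in the siTEAD4-labelled list and 5.17 in the XMU-MP-1 list. Whether the treated lists differ at these genes was not tested.

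A TEAD peak lay at 4 of the 9 control peaks, all at ZC3H12A, where 47.4% (46.6 to 48.2) of all control peaks had one. The same TEAD peak overlapped both control peaks of the strongest ZC3H12A site and is counted at each. In the vehicle list a TEAD peak lay at 4 of the 9 peaks, 3 at ZC3H12A and 1 at ZC3H12C, where 45.6% (44.9 to 46.4) of all vehicle peaks had one. Over both genes the share was close to that of all peaks. All 4 TEAD peaks overlapped a peak of at least 1 p65 list, where 39.7% of all TEAD peaks did. The TEAD folds at the 4 sites with a TEAD peak, 4.32 to 5.44, were all below the median of the TEAD list, 6.27. TEAD was profiled in XMU-MP-1 cells alone, so its level without the inhibitor was not measured.

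RefSeq places ZC3H12A on the plus strand of chromosome 1, next to the long non-coding RNA gene LITATS1, also listed as ZC3H12A-DT. ZC3H12C is on the plus strand of chromosome 11, and the next gene is RDX, which encodes the cytoskeletal linker radixin. Sites were assigned to the genes by distance alone. RefSeq lists 1 start for ZC3H12A and 2 starts for ZC3H12C, 37608 bp apart in GRCh38.p14. Which of these the hg19 position of ZC3H12C stands for was not determined. The 250 bases before each start are shown. They are from RefSeq, build GRCh38.p14, plus strand, and were not placed against the hg19 peaks. The p65 summits next to the ZC3H12C start lay 430 to 453 bp upstream of its hg19 position, farther than 250 bases reach. Capitals mark a match to the κB consensus in the first ZC3H12C sequence and to the TEAD motif GGAATG, on the minus strand, in the second. The windows are chr1:37474330-37474579, chr11:110093142-110093391 and chr11:110130750-110130999.
ZC3H12A: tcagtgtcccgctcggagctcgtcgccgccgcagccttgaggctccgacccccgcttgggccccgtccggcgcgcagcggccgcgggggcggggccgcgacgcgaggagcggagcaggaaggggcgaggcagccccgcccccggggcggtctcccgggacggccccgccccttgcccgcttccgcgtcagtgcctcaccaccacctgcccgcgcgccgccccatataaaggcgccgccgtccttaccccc
ZC3H12C, first start: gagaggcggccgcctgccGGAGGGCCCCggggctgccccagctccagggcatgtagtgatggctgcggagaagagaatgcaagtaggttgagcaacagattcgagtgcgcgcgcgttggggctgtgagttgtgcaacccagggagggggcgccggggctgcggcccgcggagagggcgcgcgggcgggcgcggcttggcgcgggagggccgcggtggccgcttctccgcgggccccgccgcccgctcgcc
ZC3H12C, second start: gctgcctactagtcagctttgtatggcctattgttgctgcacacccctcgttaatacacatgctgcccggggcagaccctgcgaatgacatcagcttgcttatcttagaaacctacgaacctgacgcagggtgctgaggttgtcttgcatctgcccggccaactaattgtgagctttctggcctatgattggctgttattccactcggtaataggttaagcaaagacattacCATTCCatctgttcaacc

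The ZC3H12A window was 78.8% G or C with 38 CpG dinucleotides, and the first ZC3H12C window 75.6% with 32. The second ZC3H12C window had 49.2% and 7. The median over all 35116 RefSeq promoter windows of this length was 58.0% G or C. The κB consensus, searched on both strands, had a match in 9.96% of all windows, GGAATG in 11.9% and the AP-1 motif TGANTCA in 6.57%. None of the 3 motifs matched in the ZC3H12A window and TGANTCA in none of the 3 windows. The κB match of the first ZC3H12C window starts 232 bases before the start, and the GGAATG match of the second 18 bases before it. A match describes the letters of the window, and the sequences under the peaks themselves were not used here.

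The strongest ZC3H12A site, 2.94 kb downstream of the start, was the only 1 of the 9 sites with a peak in all 5 lists. Its main p65 peak spanned chr1:37942719-37943341 (hg19, as for all peaks) in the control list. The fold was 10.5 in the siTEAD4-labelled list and 26.84 in the control list, and 8.67 in the XMU-MP-1 list, against 26.06 in the vehicle list. The TEAD fold was 5.44. In both reference lists it led the ZC3H12A sites. Its peak ranked 127 of 1813 in the siTEAD4-labelled list and 85 of 15465 in the control list. It ranked 310 of 1649 in the XMU-MP-1 list and 138 of 17958 in the vehicle list. Ranks in lists of different length show no change. The summit rested on 45 fragments in the siTEAD4-labelled and 149 in the control library, and on 43 in the XMU-MP-1 and 91 in the vehicle library. The 4 p65 summits lay within 77 bp of each other.

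The called summits of TEAD and of the main p65 peak lay apart within this site. The TEAD summit rested on 18 fragments over a local background of 2.49. The signal along the TEAD peak was not measured, so TEAD at the main p65 summit is not excluded. The TEAD peak spanned chr1:37942298-37943509 and covered the main p65 peak, but its summit was 658 bp from the main control p65 summit. It was 17 bp from the summit of a second, weaker control peak on the side of the gene start, chr1:37942027-37942532. That weaker control peak had a fold of 9.48 on 53 fragments. The vehicle list holds it and the main peak as 1 peak of 1361 bp, with its summit on the main peak. The siTEAD4-labelled and XMU-MP-1 peaks, of 497 and 418 bp, lay inside the main control peak and did not reach the weaker one. The overlap of p65 and TEAD here is thus an overlap of called spans, with the TEAD summit on the part of the site that has no peak in either treated p65 list.

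**Figure D2:**
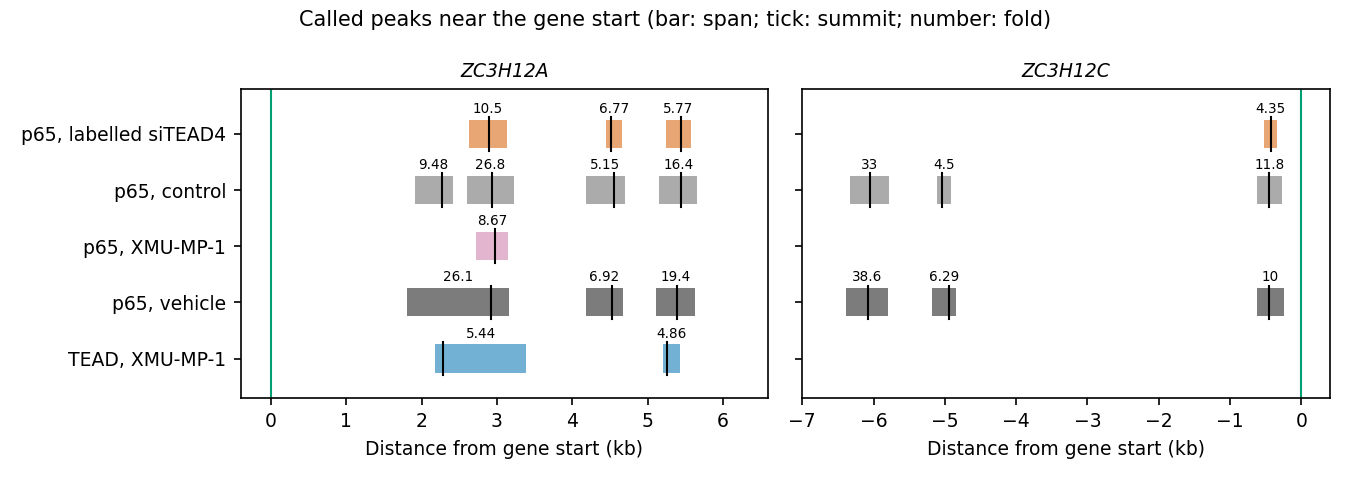
Spans of the called peaks near the starts of ZC3H12A (left) and ZC3H12C (right) against distance from the start in kb, with a tick at each summit and the fold above each bar. At ZC3H12A the TEAD tick at 2.28 kb is level with the weaker control peak at 2.27 kb, while the p65 ticks of the main peak lie between 2.90 and 2.98 kb.

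The site 5.44 kb downstream, chr1:37945276-37945775 in the control list, was the next strongest in the reference lists. Its fold was 5.77 in the siTEAD4-labelled list and 16.39 in the control list. No XMU-MP-1 peak was called there, against a vehicle fold of 19.39. TEAD was called with a fold of 4.86, and its summit lay 179 bp from the control p65 summit and 182 bp from the siTEAD4-labelled one. Between these sites, 4.56 kb downstream, chr1:37944306-37944813 had the lowest fold of the downstream sites in the reference lists. Its fold was 6.77 in the siTEAD4-labelled list and 5.15 in the control list. It had no XMU-MP-1 peak, against a vehicle fold of 6.92, and TEAD was not called.

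The order of the 3 downstream sites differed between lists. In the siTEAD4-labelled list the 4.56 kb site stood above the 5.44 kb site, with 28 fragments against 23 at the summit. In the control list the 5.44 kb site stood above the 4.56 kb site, with 110 fragments against 51, and in the vehicle list likewise, with 58 against 28. The local background in the control list was 3.0 at the 5.44 kb site and 5.0 at the 4.56 kb site, in scaled fragments. In the siTEAD4-labelled list it was 3.16 and 3.29. The order by fragments was the same as the order by fold in each of these 3 lists. In the siTEAD4-labelled list the 4.56 kb site had 54.9% (95% Wilson interval 41.4 to 67.7) of the fragments of the pair, so the order there is within counting error. In the control list it had 31.7% and in the vehicle list 32.6%, with upper bounds of 39.2% and 43.0%. Each interval covers the counting of fragments within its own list only. The counts are those at the summits, with the local background left in. The pair was chosen with its order in the lists known, and each list comes from 1 library. Whether the share differs between lists was therefore not tested.

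The remaining ZC3H12A site was 22.4 kb upstream, chr1:37917491-37917928 in the control list. Neither treated p65 list had a peak there, against a control fold of 5.61 and a vehicle fold of 3.05. The TEAD fold was 5.30. The TEAD and control summits lay 29 bp apart. This was the closest p65 and TEAD pair of the 9 sites other than the weaker peak of the strongest ZC3H12A site.

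The downstream ZC3H12A group was dense at a distance of 5 kb. Within 5 kb of its strongest summit the siTEAD4-labelled list held 3 peaks, itself included, and 2.92% of the peaks of that list had as many around them. The control list held 4, matched by 1.5% of control peaks, and the vehicle list 3, matched by 8.10%. The control count includes both peaks of the strongest site, which the vehicle list holds as 1 peak. The XMU-MP-1 list held the strongest peak alone. The median in each of these lists was 1. Within 50 kb the counts stood out less. The siTEAD4-labelled list held 3 peaks there, matched by 14.0% of its peaks, the control list 5, matched by 18.4%, and the vehicle list 4, matched by 33.6%. TEAD had 2 peaks within 5 kb of its own strongest ZC3H12A summit, matched by 34.2% of TEAD peaks. RefSeq gives ZC3H12A a length of 9798 bp in GRCh38.p14, more than the distance of the farthest summit of the downstream group from the start. Which exon or intron the summits of this group fall in was not determined, as no hg19 annotation was used here.

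ZC3H12C had its strongest site 6.05 kb upstream of the start, chr11:109957601-109958137 in the control list and chr11:109957542-109958124 in the vehicle list. The siTEAD4-labelled list had no peak there, against the control fold of 32.96. The XMU-MP-1 list had none, against the vehicle fold of 38.62. TEAD had none. The control peak ranked 19 of 15465 and the vehicle peak 20 of 17958. The summits lay 21 bp apart and rested on 148 fragments in the control and 103 in the vehicle library. The local background was 1.66 and 1.69. No other list held a peak within 1 kb of this site.

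The absence has a limit set by the calling threshold. To reach the weakest p-value of the siTEAD4-labelled list, a summit needed 11 fragments at the 1st percentile of the local background of its peaks, 16 at the median and 27 at the 99th percentile. In the XMU-MP-1 list it needed 13, 18 and 32 fragments at the same points. The corresponding folds were 3.59, 3.15 and 2.4 in the siTEAD4-labelled list, and 3.95, 3.59 and 2.61 for XMU-MP-1. The reads at the site and its local background in the treated libraries were not analysed here, so which of these limits applies is not known. Enrichment below the limit was not detectable.

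Other reference sites of the same strength mostly had treated peaks. Of the other 87 control peaks within 20% of the control fold of the ZC3H12C site, 84 (96.6%, 95% Wilson interval 90.3 to 98.8) had a siTEAD4-labelled peak. Of the other 55 vehicle peaks within 20% of its vehicle fold, 50 (90.9%, 80.4 to 96.1) had an XMU-MP-1 peak. All 18 control peaks with a higher fold than this site had a siTEAD4-labelled peak, and 18 of the 19 vehicle peaks with a higher fold had an XMU-MP-1 peak. Among sites with a fold of at least 30 in both reference lists there were 23, of which 22 had a peak in both treated lists. The ZC3H12C site was the other. At a fold of at least 20 in both there were 218 sites, with 181 called in both treated lists, 25 in the siTEAD4-labelled list alone, 2 in the XMU-MP-1 list alone and 10 in neither. The intervals cover the counting of peaks only. Since the site was singled out for its missing peaks, these shares show where it stands and are no test of it.

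**Figure D3:**
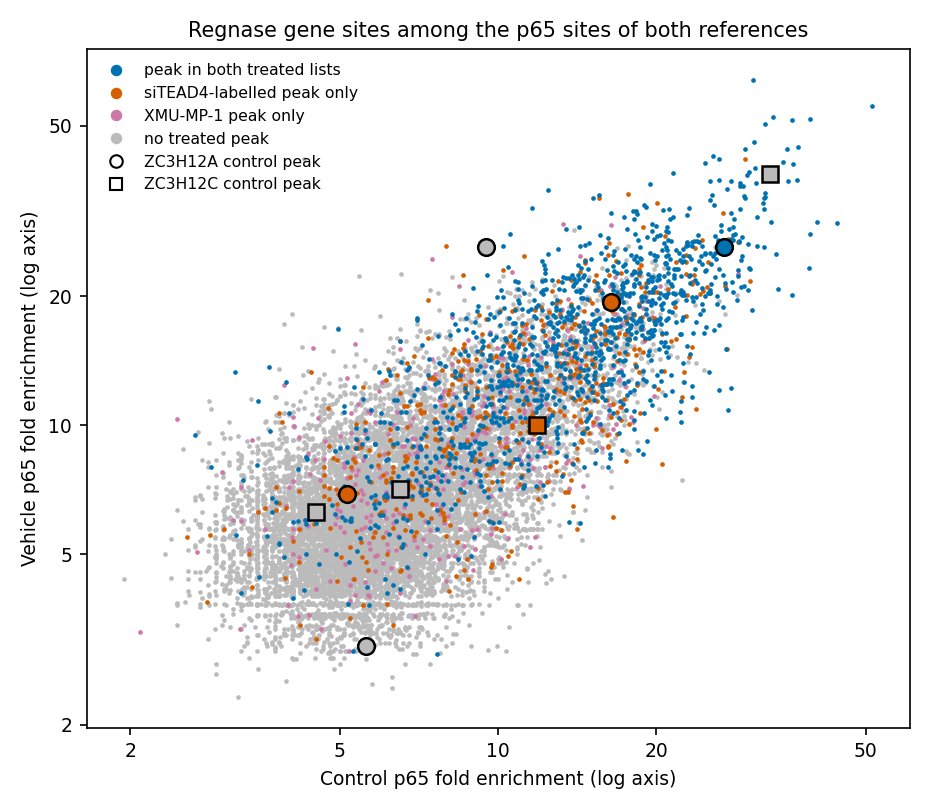
Vehicle against control p65 fold on log axes for the control peaks that have a vehicle peak, coloured by the treated lists that hold a peak there; large circles are ZC3H12A and large squares ZC3H12C control peaks. The large grey square at folds of 32.96 and 38.62 is the ZC3H12C site 6.05 kb upstream, among dots that are mostly blue; the grey circle at a control fold of 9.48 is the weaker ZC3H12A control peak, paired with the merged vehicle peak.

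A rule fixed on the folds in all 5 lists, with a missing peak set to a fold of 1, gave the control sites most like it elsewhere in the genome. The closest was chr19:45250565-45251084, called in none of the treated and TEAD lists, with a control fold of 25.9 and a vehicle fold of 26.02. The second was chr6:18501838-18502451, with folds of 28.51 and 20.15, and chr4:8175234-8175667, with 20.67 and 23.28. Next came chr5:10508658-10509182 and chr11:10388059-10388525. The distance, in log2 fold over the 5 lists, was between 0.67 and 1.04 for these 5 sites. The strongest ZC3H12A site had closer counterparts, at distances of 0.38 to 0.56. The first was chr7:148317807-148318383, with folds of 8.63 in the siTEAD4-labelled, 24.42 in the control, 8.70 in the XMU-MP-1, 23.73 in the vehicle and 4.86 in the TEAD list.

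Close to the ZC3H12C start, a peak had its control summit 451 bp upstream, chr11:109963300-109963658. Like the stronger site it was called in the control and vehicle lists, and unlike it also in the siTEAD4-labelled list. Its fold was 4.35 in the siTEAD4-labelled list and 11.84 in the control list. The XMU-MP-1 list had none, against a vehicle fold of 10.01. TEAD had none. The siTEAD4-labelled summit rested on 16 fragments, against 67 in the control library, and lay 21 bp from the control summit. Its −log10 q was 3.93 and it ranked 1374 of 1813 by fold, so it was among the weaker calls of its list. The vehicle summit had 28 fragments and lay 2 bp from the control summit. In the siTEAD4-labelled list this was thus the only ZC3H12C site called, while in the control and vehicle lists its fold was below that of the site 6.05 kb upstream.

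Of the other control peaks within 20% of its control fold, 485 of 1833 (26.5%, 24.5 to 28.5) had a siTEAD4-labelled peak, and of the vehicle peaks 367 of 2703 (13.6%, 12.3 to 14.9) had an XMU-MP-1 peak. At ZC3H12A the same shares were 92.8% (88.5 to 95.6) of 209 control and 76.6% (71.6 to 81.0) of 308 vehicle peaks for the strongest site. For the site 5.44 kb downstream they were 51.4% (48.4 to 54.5) of 1015 and 53.9% (50.4 to 57.4) of 772. The site 4.56 kb downstream had a siTEAD4-labelled peak, where 2.18% (1.85 to 2.57) of 6418 control peaks of its fold did. That match is on fold alone. Its control peak had 51 fragments on a local background of 5.0 scaled fragments, against a median of 2.4 over the control list. Whether this background bears on the match was not tested, and the share among peaks of equal depth was not computed.

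**Figure D4:**
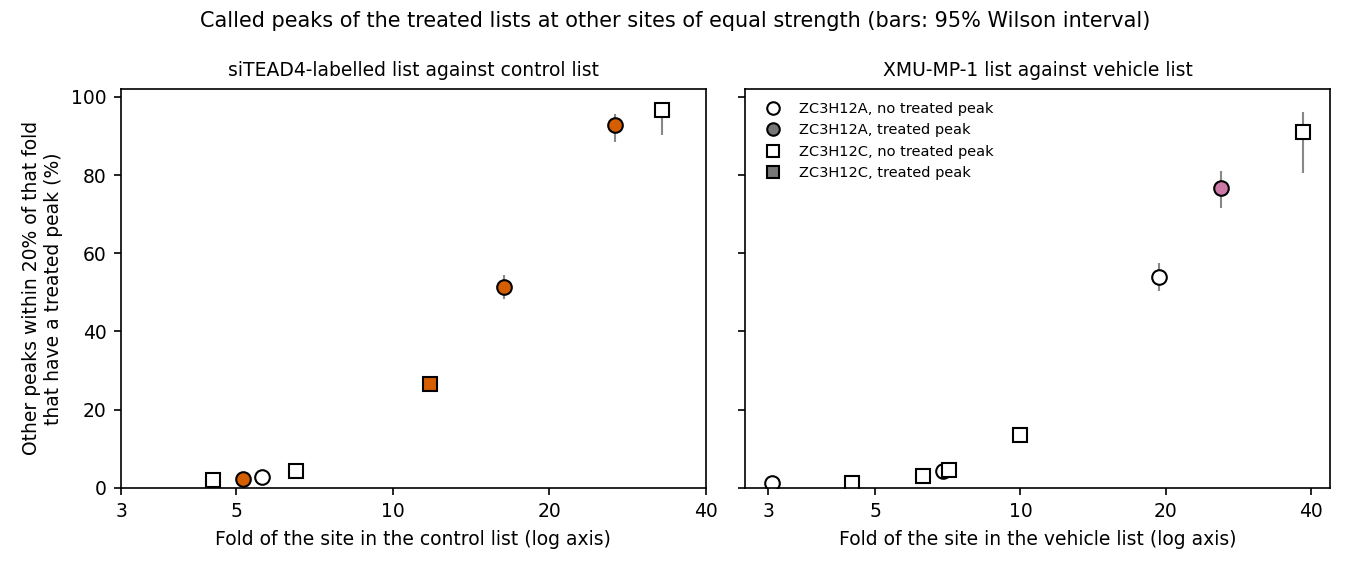
Share of other reference peaks within 20% of the fold of each site that have a peak in the siTEAD4-labelled list (left) or the XMU-MP-1 list (right), in percent, against the fold of the site; bars are 95% Wilson intervals and filled symbols are sites that have a treated peak themselves. The open square at the upper right of each panel is the ZC3H12C site 6.05 kb upstream, at 96.6% and 90.9%, and the filled circle at 2.18% on the left is the ZC3H12A site 4.56 kb downstream.

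The other ZC3H12C sites were weak. Those 5.04 and 48.4 kb upstream had no peak in a treated list or in the TEAD list. The nearer, chr11:109958816-109959007, had a control fold of 4.50 and a vehicle fold of 6.29. The farther, chr11:109915364-109915594, had a control fold of 6.51 and a vehicle fold of 7.11. The only TEAD peak of ZC3H12C, chr11:109948556-109948797, lay 15.2 kb upstream with a fold of 4.32 on 8 fragments. It overlapped a vehicle p65 peak with a fold of 4.48 on 13 fragments, and no other list had a peak there. Both calls were among the weaker ones of their lists, with ranks by fold of 19893 of 23460 TEAD peaks and 14394 of 17958 vehicle peaks.

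**Figure D5:**
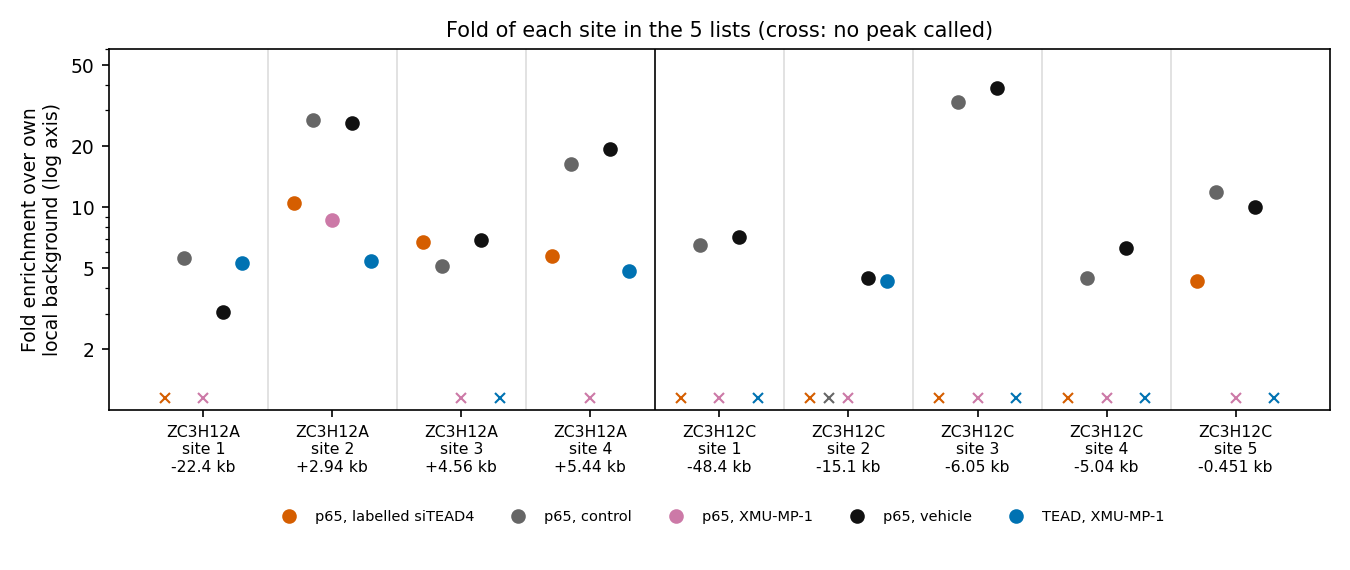
Fold enrichment on a log axis for each of the 9 sites in the 5 lists, with a cross at the foot of the axis where no peak was called; the distance under each name is that of the strongest control p65 summit from the gene start, or of the vehicle summit at ZC3H12C site 2. The ZC3H12A site at 2.94 kb has a point in every list, and the ZC3H12C site 3 has crosses in the treated and TEAD lists and points above 30 in the control and vehicle lists.

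The window limit lay between a p65 site 48.4 kb and a TEAD peak 55.01 kb from the ZC3H12C start, with control and vehicle folds of 6.51 and 7.11 inside and a TEAD fold of 4.62 outside. At ZC3H12A the farthest site inside was 22.4 kb and the nearest outside 60.1 kb from the start.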

How the data were processed

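ChIP-seq of p65 and TEAD in 786-O cells was analysed from 5 peak lists, 1 per immunoprecipitate. Per the labels' protocols, chromatin was cross-linked for 10 min with 1% formaldehyde, and library fragments of 300 to 700 bp were selected. Per the submitters' processing notes, fastp, Bowtie2 2.4.5 and MACS2 were used with hg19. MACS2 settings and the input behind each list are not stated there. The authors deposited for each peak a fold (ratio of pileup plus 1 to local background plus 1, as the solved values show), a −log10 p-value, a −log10 q-value, a score, which was not used, and the summit.

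Members were peaks with a summit within 50 kb of the gene positions. The genes, sites and comparisons were chosen with earlier results of these data known. Overlap was at least 1 bp. All peaks at the genes were named. Shares have 95% Wilson intervals, which cover counting only. Fragments and backgrounds were solved from fold and p, with pileups as multiples of 1, or of 0.587 in the control and 0.783 in the XMU-MP-1 list; at least 99.95% of the peaks of each list were solved. RefSeq promoter windows were matched by symbol, for both genes. Other genes of the pathway were not counted, since hg19 positions were used for these 2 genes alone. Python 3.11.15, numpy 2.4.6, pandas 2.3.3, scipy 1.17.1 and matplotlib 3.10.9 were used. The code was tested on simulated data. Alternatives changed the window, the threshold, the overlap and the measure of strength.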

Additional observations from a re-analysis of the deposited data

How the results depend on the processing

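Of 96 recomputed values, 88 kept their count to within 1.5 times or stayed inside the 95% interval, and 8 moved. All 8 concern the weak calls at ZC3H12C. Limits of 5 on −log10 q or on fold left 0 of its siTEAD4-labelled peaks, and with the q limit in both lists 0 of its 4 control peaks had a siTEAD4-labelled peak. Its TEAD count was 0 at either limit and 5 in a window of 100 kb. With an overlap of 50% of the shorter peak, or with the q limit in both lists, 0 of its vehicle peaks had a TEAD peak. Among control peaks as strong as the ZC3H12C site upstream, the share with a siTEAD4-labelled peak was 96.6% to 100% over all settings, and the XMU-MP-1 share among vehicle peaks 90.9% to 97.2%. Stricter limits remove calls by construction. No paired analysis was possible because no condition has a second library. The lists give no read totals, so enrichment below the calling threshold was not detectable.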

Other observations

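Of all TEAD peaks, 39.7% overlapped a peak of at least 1 p65 list. Between 50 and 100 kb from the starts 1 of 5 TEAD peaks did, at ZC3H12A. At ZC3H12A the only site in this range, 60.1 kb downstream, was led by TEAD, chr1:37999972-38000424, with a fold of 12.99 on 35 fragments. This is the highest TEAD fold within 100 kb of either start. It overlapped a vehicle p65 peak with a fold of 3.83 on 13 fragments, and no other p65 list had a peak there.

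At ZC3H12C TEAD had 4 peaks in this range, 93.0 kb upstream and 55.01, 65.3 and 81.3 kb downstream, with folds of 4.60, 4.62, 5.52 and 4.54. These 4 overlapped no p65 peak. A p65 site 66.6 kb downstream had no peak in either treated list, against a control fold of 5.35 and a vehicle fold of 8.29. Its control and vehicle summits lay between 2 of these TEAD peaks and in neither. RefSeq gives ZC3H12C a length of 78450 bp in GRCh38.p14. Whether this p65 site lies inside the gene was not determined, because it depends on which RefSeq start the hg19 position stands for.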
